A study of Mus musculus with 12 samples.

Results

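Anti-PD-1 treatment was compared with isotype control in tumors of obese mice, to ask which transcripts differed between the treated and the control tumors. The comparison used 6 of the 12 tumors in the series, 3 per antibody, chosen by their labels alone, and it covered every gene with enough counts. All 6 hosts were male C57BL/6J mice. They were put on a Western diet with added cholesterol at 4 to 5 weeks of age and stayed on it for 15 weeks, by which time body weight had increased by 50%. B16-F10 cells, a transplantable mouse melanoma line, were then implanted under the skin of the right flank. Antibody dosing began when a tumor could be felt, with 3 injections a week into the peritoneum at 10 mg/kg. The antibody was 29F.1A12, which binds PD-1, or 2A3 as its isotype control, and tumors were collected on day 16. The other 6 tumors came from nonobese mice on a matching control diet that received the same antibodies, and they were used in the model fit, where they bore on the count filter, the scaling and the estimate of the spread between tumors. Each library came from a frozen piece of a tumor, in which all cells were lysed together, so that fewer cells of a type and less RNA per cell cannot be told apart. Every tumor grew from the same transplanted line, and each group represents 3 animals of one strain and sex.

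PD-1 is an inhibitory receptor on activated T cells, and antibodies that block it release T cells to kill tumor cells and to secrete interferon-gamma. Interferon-gamma signals through the kinases Jak1 and Jak2 and raises, in part by way of the transcription factor Irf1, the peptide-loading genes of MHC class I, the immunoproteasome subunits and a set of large GTPases, while MHC class II is driven through the coactivator Ciita. Type I interferons raise antiviral genes through Stat2 and Irf9. Subcutaneous tumors border on skin, fat and flank muscle, whose transcripts can enter a bulk library.

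The deposited counts summed to between 14022929 and 23349051 per obese tumor. Markers of the labelled tumor type were abundant throughout. The 16 melanocyte genes examined summed to 38950 to 43780 CPM (counts scaled to library size, per 1000000) in all 6 tumors, and their median log2 fold change was -0.00352. Genes of keratinocytes, neutrophils and B cells were mostly below the count filter, with 11 of 14, 10 of 13 and 9 of 11 listed genes not tested. Across genes, the treated replicates 2 and 3 were the most alike of the pairs of obese tumors (Spearman rho = 0.995), whereas the treated replicate 1 was closest to the isotype replicate 2 (rho = 0.989). No pair of tumors within a group agreed within sampling noise, so the 6 libraries were counted as separate tumors.

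In total, 293 genes were upregulated and 27 downregulated in the treated relative to the isotype tumors at the thresholds of the study, namely more than 2-fold change and an unadjusted P value under 0.05 by the quasi-likelihood test of edgeR. These were 2.24% and 0.206% of the 13095 genes tested. No gene reached a false discovery rate (FDR) of 0.05 with edgeR, where the lowest value was 0.108, although 991 genes had an unadjusted P below 0.05, 563 of them higher and 428 lower with treatment. DESeq2 placed 105 genes below an FDR of 0.05, of which 91 were higher. The response had the shape of large increases in few genes, many of them at low levels. The median log2 fold change of the upregulated genes was 1.64 and that of all genes was -0.01, with 47.6% of all genes higher. Of genes averaging below 1 CPM, 6.85% were upregulated, compared with 5.23% at 1 to 10 CPM, 0.885% at 10 to 100 CPM and 0.132% above 100 CPM. Downregulated shares fell in the same way, at 1.04%, 0.45%, 0.0295% and 0% over these ranges. Low genes can also pass the count filter through the group in which they are higher. All 3 treated tumors lay above all 3 isotype tumors for 714 genes (5.45%) and below them for 916 genes (7%), so complete separation of the groups (no overlap) was at least as frequent downward as upward while passing the fold threshold was not.

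**Figure D1:**
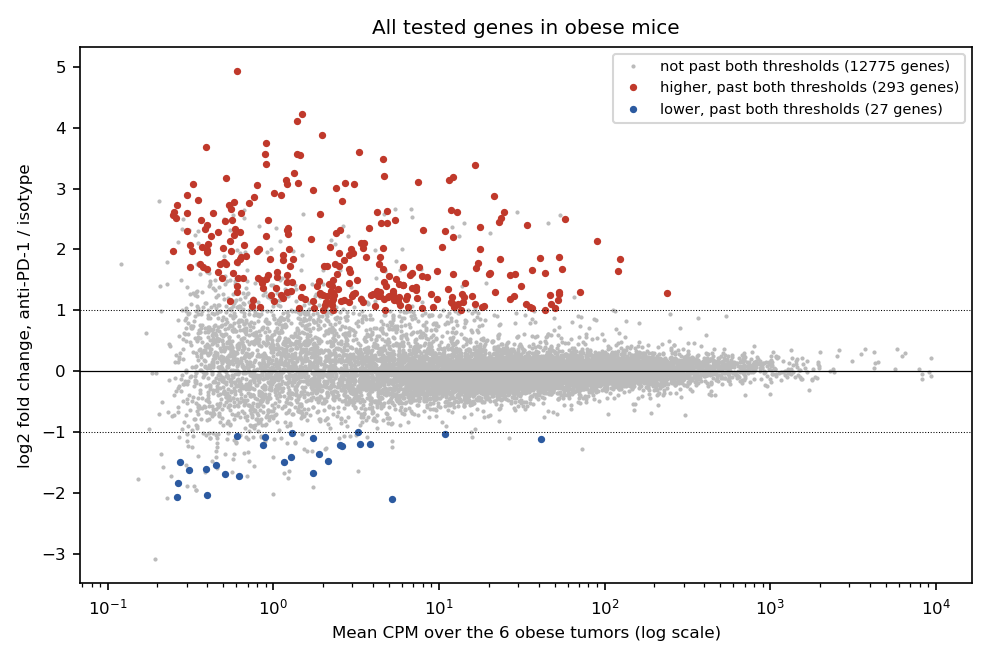
Log2 fold change of anti-PD-1 over isotype tumors in obese mice against the mean CPM of the 6 obese tumors (log axis) for the 13095 genes tested, with 1 point per gene and dotted lines at a fold change of 2. The 293 upregulated genes (red) extend to a log2 fold change of 4.93, the 27 downregulated genes (blue) to -2.10, and only 3 upregulated genes average above 100 CPM.

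The treated tumors did not contribute equally. The treated replicate 1 had the lowest level of the 3 treated tumors in 253 of the 293 upregulated genes, against 25 for replicate 2 and 15 for replicate 3. Over all 13095 genes tested, the lowest treated tumor was replicate 1 for 5187, replicate 2 for 3763 and replicate 3 for 4145. Summed over the 293 genes, the isotype tumors held 1481, 1087 and 1519 CPM, and the treated tumors held 2015, 5507 and 4618 CPM. The treated replicate 1 thus stood just above the isotype tumors, while the other two were far above them. Nonetheless, replicate 1 exceeded every isotype tumor in 174 of the 293 genes, and replicates 2 and 3 both did so in 287. Over all 13095 genes tested, these counts were 2854 and 1789. The upregulated genes were chosen by these same values, so these figures describe the tumors and carry no test. Over all genes tested the treated tumors were no more variable than the isotype tumors, with a median SD on the log2 CPM scale of 0.16 against 0.23, but over the upregulated genes the order was the opposite, 0.87 against 0.49.

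**Figure D2:**
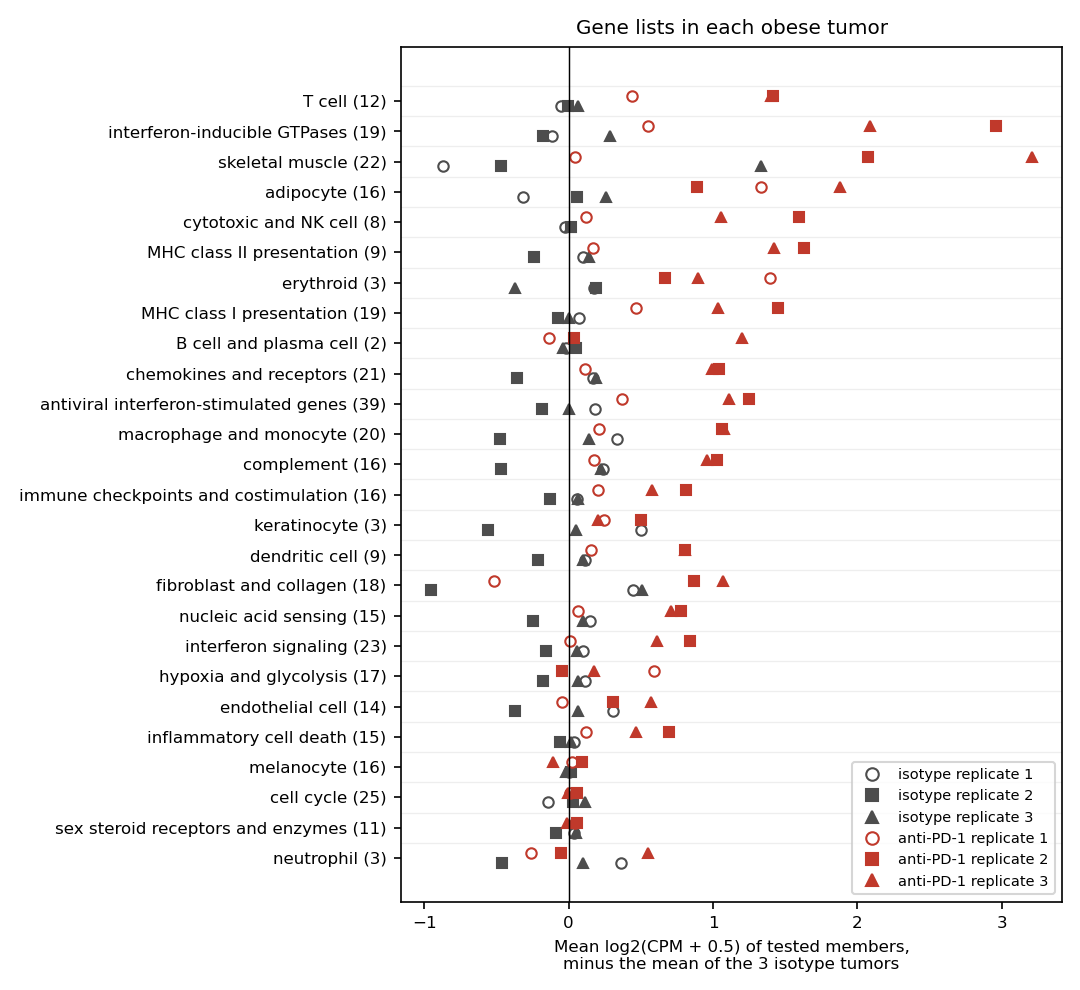
Mean log2(CPM + 0.5) of the tested members of each of 26 gene lists in each obese tumor, relative to the mean of the 3 isotype tumors, with the number of tested members in parentheses. In most immune lists, B cells and neutrophils excepted, the treated replicates 2 and 3 (filled red) lie to the right and replicate 1 (open red) lies nearer to the isotype tumors (grey), whereas in the adipocyte and erythroid lists replicate 2 is the lowest treated tumor.

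Interferon-inducible GTPases, which attack the vacuoles of intracellular pathogens, were higher in all members tested. The other listed member, Gbp11, was too low to test (1, 7 and 1 counts with isotype, 0, 6 and 4 with anti-PD-1). All 19 members tested were upregulated, their median log2 difference was 2.50, against 2.24% and -0.01 over all genes, and the groups did not overlap for 15 of them (against 5.45% of all genes). Their summed level was 172, 155 and 205 CPM in the isotype tumors and 259, 1325 and 754 CPM in the treated tumors, and treated replicate 2 was the highest of the treated tumors for all 19. Gbp2, a guanylate-binding protein, measured 37.5, 22.9 and 39.1 CPM with isotype and 41.3, 254 and 143 CPM with anti-PD-1 (log2 fold change 2.14 ± 0.52 SE, edgeR FDR = 0.22). For Gbp2 the treated replicate 1 was barely above the highest isotype tumor. Igtp, an immunity-related GTPase, measured 17.96, 15.5 and 18.2 CPM with isotype and 29.0, 173 and 91.1 CPM with anti-PD-1 (2.50 ± 0.54, edgeR FDR = 0.202). Irgm1, a regulator of that family, measured 48.3, 53.4 and 60.3 CPM against 77.5, 307 and 194 CPM (1.84 ± 0.36, edgeR FDR = 0.192). Here replicate 1 was above every isotype tumor, but replicates 2 and 3 were far higher again. The near-identical pair Tgtp1 and Tgtp2 also passed, at 3.19 ± 0.73 and 2.88 ± 0.63, although reads shared by the copies leave their separate values uncertain. Gbp10 and Gm4841 had the largest fitted changes of the group, 3.88 and 4.12, both from isotype levels below 0.5 CPM and with overlapping groups. Genes at this level can enter the test through the group in which they are higher.

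Of 39 antiviral interferon-stimulated genes, 17 were upregulated (43.6%), all 39 had a positive fold change, and the median was 0.89. The treated tumors were all above the isotype tumors for 23 genes. Over all genes tested, 2.24% were upregulated and 5.45% were separated in this direction. Ifit3, of a family of RNA-binding antiviral proteins, had 16.4, 18.05 and 17.7 CPM in the isotype tumors and 29.1, 61.7 and 45.8 CPM in the treated tumors (1.39 ± 0.22, edgeR FDR = 0.108). Its neighbour I830012O16Rik, named Ifit3b in RefSeq, measured 3.87, 4.48 and 3.82 CPM and then 8.67, 10.8 and 12.2 CPM (1.38 ± 0.29). Apol9a, an apolipoprotein L, had the smallest P of all genes and measured 0.799, 1.12 and 0.859 CPM with isotype and 3.17, 13.6 and 8.49 CPM with anti-PD-1 (3.20 ± 0.49, edgeR FDR = 0.108). In these 3 genes every treated tumor was above every isotype tumor, and replicate 1 was the lowest treated tumor. Apol9a shares sequence with Apol9b, and Ifit3 with Ifit3b, so that the separate values within each pair are uncertain. Usp18, the protease that removes Isg15 from proteins and damps the type I interferon receptor, rose by 1.18 ± 0.29, Rtp4 by 1.35 ± 0.28 and Ifi27l2a by 1.34 ± 0.32.

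Fewer genes of interferon signaling passed. Of 23 interferon signaling genes, 6 were upregulated (against 2.24% of all genes), 15 were higher (against 47.6%), and the median was 0.38 (against -0.01). Of the 6, 2 kept their call with any obese tumor left out. The 6 were transcription factors and coactivators, namely Batf2 (2.63 ± 0.59), Nlrc5 (2.01 ± 0.69), Ciita (1.94 ± 0.77), Irf8 (1.603 ± 0.44), Irf7 (1.23 ± 0.42) and Irf1 (1.00 ± 0.40). Irf1 measured 30.1, 26.9 and 30.8 CPM with isotype and 22.6, 93.3 and 59.4 CPM with anti-PD-1. Thus Irf1 was lower in treated replicate 1 than in any isotype tumor and higher in the other two. Ifng itself, the gene of the cytokine, had 0, 0 and 1 counts in the isotype tumors and 1, 12 and 6 counts in the treated tumors and was below the count filter. Among sensors of nucleic acids, 5 of 15 were upregulated, again against 2.24% of all genes, and 1 of the 5 kept its call with any obese tumor left out. These were Zbp1 (2.31 ± 0.61), Tlr9 (2.04 ± 0.77), Ddx60 (1.32 ± 0.44), Dhx58 (1.22 ± 0.32) and Tlr7 (1.00 ± 0.42).

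Promoters of these genes were searched for the letters GAAANNGAA, the core of the interferon-stimulated response element, and for TTCNNNGAA, the core of the gamma-activated sequence, on both strands. The window ran from 250 bases before to 50 bases after each RefSeq start (GRCm38.p6), N stands for any base, and matches of the pair may overlap. Of all 32851 promoters in the table, 8.56% held the first motif and 8.3% the second. Counting genes, the first motif was present for 8.64% of the 10445 tested genes with a promoter in the table, for 25.2% of the 206 upregulated ones and for 2 of 20 downregulated ones. It was present for 11 of 12 interferon-inducible GTPases, 17 of 30 antiviral genes and 4 of 17 MHC class I genes. The first motif was also present for 1 of 7 MHC class II genes, 0 of 8 T cell genes and 0 of 11 adipocyte genes. For sensors of nucleic acids it was 4 of 11, for interferon signaling 4 of 19 and for macrophages and monocytes 3 of 14. For skeletal muscle it was 2 of 16, for fibroblasts and collagen 1 of 10, and for upregulated genes in no list 28 of 129. The second motif was present for 7 of 12 GTPases, for 15.5% of upregulated genes and for 8.31% of tested genes. In other lists it was present for 6 of 19 interferon signaling, 6 of 30 antiviral, 1 of 11 sensor and 2 of 17 MHC class I genes. It was present for 2 of 8 T cell, 2 of 14 macrophage and monocyte, 1 of 11 adipocyte and 1 of 16 skeletal muscle genes. No match was held by 7 MHC class II and 10 fibroblast and collagen genes, and 16 of 129 upregulated genes in no list held one. Among the named genes with a promoter, H2-K1, H2-DMb1, Psmb9, Psmb10, Irf7, H2-Eb1, H2-Aa and Tap1 held neither motif. The 5 promoters below were chosen among those with a match. Ifit3 holds several response elements in a row, H2-T23 a single one and Irgm1 a pair that overlap. Igtp holds both motifs side by side and Irf1 a gamma-activated sequence alone. All 5 are written 5′ to 3′ on the strand of the gene, with matches in capitals. They lie at chr19:34583279-34583578 on the plus strand, chr17:36032652-36032951 on the minus strand, chr11:48871371-48871670 on the minus strand, chr11:58199306-58199605 on the plus strand and chr11:53769764-53770063 on the plus strand.
Ifit3: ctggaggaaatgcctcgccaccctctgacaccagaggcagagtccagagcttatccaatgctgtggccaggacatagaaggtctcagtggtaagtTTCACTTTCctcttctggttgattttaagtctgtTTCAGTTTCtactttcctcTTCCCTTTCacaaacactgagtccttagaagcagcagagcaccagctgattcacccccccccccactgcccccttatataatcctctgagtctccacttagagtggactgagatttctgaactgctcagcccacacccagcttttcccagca
H2-T23: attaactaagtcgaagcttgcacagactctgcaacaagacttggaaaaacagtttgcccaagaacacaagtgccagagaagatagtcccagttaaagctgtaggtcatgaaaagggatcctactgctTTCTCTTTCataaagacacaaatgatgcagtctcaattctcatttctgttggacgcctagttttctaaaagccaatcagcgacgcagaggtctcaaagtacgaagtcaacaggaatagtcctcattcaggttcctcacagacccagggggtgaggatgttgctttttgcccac
Irgm1: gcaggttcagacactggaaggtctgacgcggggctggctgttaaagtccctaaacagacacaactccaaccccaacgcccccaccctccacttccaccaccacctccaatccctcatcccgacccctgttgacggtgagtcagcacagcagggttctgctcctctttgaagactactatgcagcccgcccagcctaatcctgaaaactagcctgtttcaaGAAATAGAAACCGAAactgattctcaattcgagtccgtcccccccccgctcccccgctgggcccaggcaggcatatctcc
Igtp: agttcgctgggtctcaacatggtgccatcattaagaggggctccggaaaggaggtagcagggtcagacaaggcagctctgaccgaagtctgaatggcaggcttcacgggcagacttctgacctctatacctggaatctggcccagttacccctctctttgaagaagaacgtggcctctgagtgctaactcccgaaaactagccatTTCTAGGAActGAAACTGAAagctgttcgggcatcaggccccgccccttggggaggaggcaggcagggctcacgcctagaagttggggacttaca
Irf1: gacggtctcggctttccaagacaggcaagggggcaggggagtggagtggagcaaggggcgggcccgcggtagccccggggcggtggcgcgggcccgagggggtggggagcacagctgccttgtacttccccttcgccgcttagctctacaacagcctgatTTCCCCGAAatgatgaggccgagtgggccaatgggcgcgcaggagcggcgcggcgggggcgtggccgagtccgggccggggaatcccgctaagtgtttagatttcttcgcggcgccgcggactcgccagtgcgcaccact
The Ifit3 matches begin 155, 121 and 102 bases before the start, read on the opposite strand, and that of H2-T23 begins 123 bases before it. In Irgm1 they begin 30 and 24 bases before the start, in Igtp the gamma-activated sequence begins 45 and the response element 34 bases before it, and in Irf1 the match begins 90 bases before it. A match is a string of letters and not a measured binding site.

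MHC class I presentation comprised 19 tested genes, of which 9 were upregulated (against 2.24% of all genes) and 13 had all treated tumors above all isotype tumors (against 5.45%), with a median of 1.00. H2-K1, a classical class I heavy chain, measured 156, 132 and 127 CPM with isotype and 289, 435 and 288 CPM with anti-PD-1 (1.29 ± 0.22, edgeR FDR = 0.143). Unlike the GTPases, H2-K1 was as high in treated replicate 1 as in replicate 3. H2-T23, a nonclassical class I gene, measured 11.3, 8.60 and 9.88 CPM and then 18.1, 43.5 and 28.7 CPM (1.601 ± 0.26, edgeR FDR = 0.108). The immunoproteasome subunits Psmb8, Psmb9 and Psmb10, which replace the constitutive catalytic subunits and alter peptide cleavage, rose by 2.52 ± 0.48, 2.61 ± 0.54 and 1.26 ± 0.28. Psmb9 measured 3.70, 3.22 and 3.87 CPM with isotype and 8.46, 36.2 and 21.3 CPM with anti-PD-1, with all treated tumors above all isotype tumors. The peptide transporter genes Tap1 and Tap2 rose by 1.88 ± 0.45 and 1.597 ± 0.36. Reads of the class I heavy chains can be shared between near-identical copies, so values of single H2 genes are uncertain.

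Of 9 MHC class II genes tested, 7 were upregulated, with a median of 1.61, but the groups were separated for 4 (against 2.24% and 5.45% of all genes). Cd74, the invariant chain that guides class II molecules, measured 66.9, 43.6 and 65.1 CPM with isotype and 58.9, 261 and 229 CPM with anti-PD-1 (1.64 ± 0.53, edgeR FDR = 0.423). The treated replicate 1 was within the isotype range for Cd74, as it was for H2-Aa and H2-Eb1. H2-DMb1, a subunit of the peptide editor, was different, with 10.6, 10.6 and 10.5 CPM in the isotype tumors and 18.3, 27.3 and 22.3 CPM in the treated ones (1.10 ± 0.21, edgeR FDR = 0.192). All treated tumors were above all isotype tumors for H2-DMb1. H2-Ab1 and the lysosomal protease Ctss rose by 1.86 ± 0.61 and 1.16 ± 0.31.

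The upregulated genes lay in part side by side on the chromosomes. Runs of at least 3 upregulated genes, with gaps of at most 2 tested genes and less than 500 kb, numbered 17 and held 70 of the 293 genes. Runs were defined by the calls, so the shares of genes that passed within them are high by construction. Over all genes tested, 2.24% were upregulated. The run with the most genes covered chr17:34119693-34316674 (GRCm38), where all 9 tested genes from H2-DMa to H2-Eb1 were upregulated, the transporter and immunoproteasome genes among them. At chr11:48865245-49135387, 6 of 7 tested genes passed, from Irgm1 to Olfr56, and at chr5:105012513-105295871 all 5 Gbp genes passed. A second Gbp group at chr3:142496934-142638008 had 4 of 4, the Ccl genes at chr11:82035577-82116799 had 4 of 5, and a run of Cd3g, Cd3d, Cd3e and Amica1 at chr9:44969572-45108531 had 4 of 4. Such families share sequence and transcription units can overlap, and how the counting used strand is not given in the sources used here, so neighbours are not independent measurements.

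**Figure D3:**
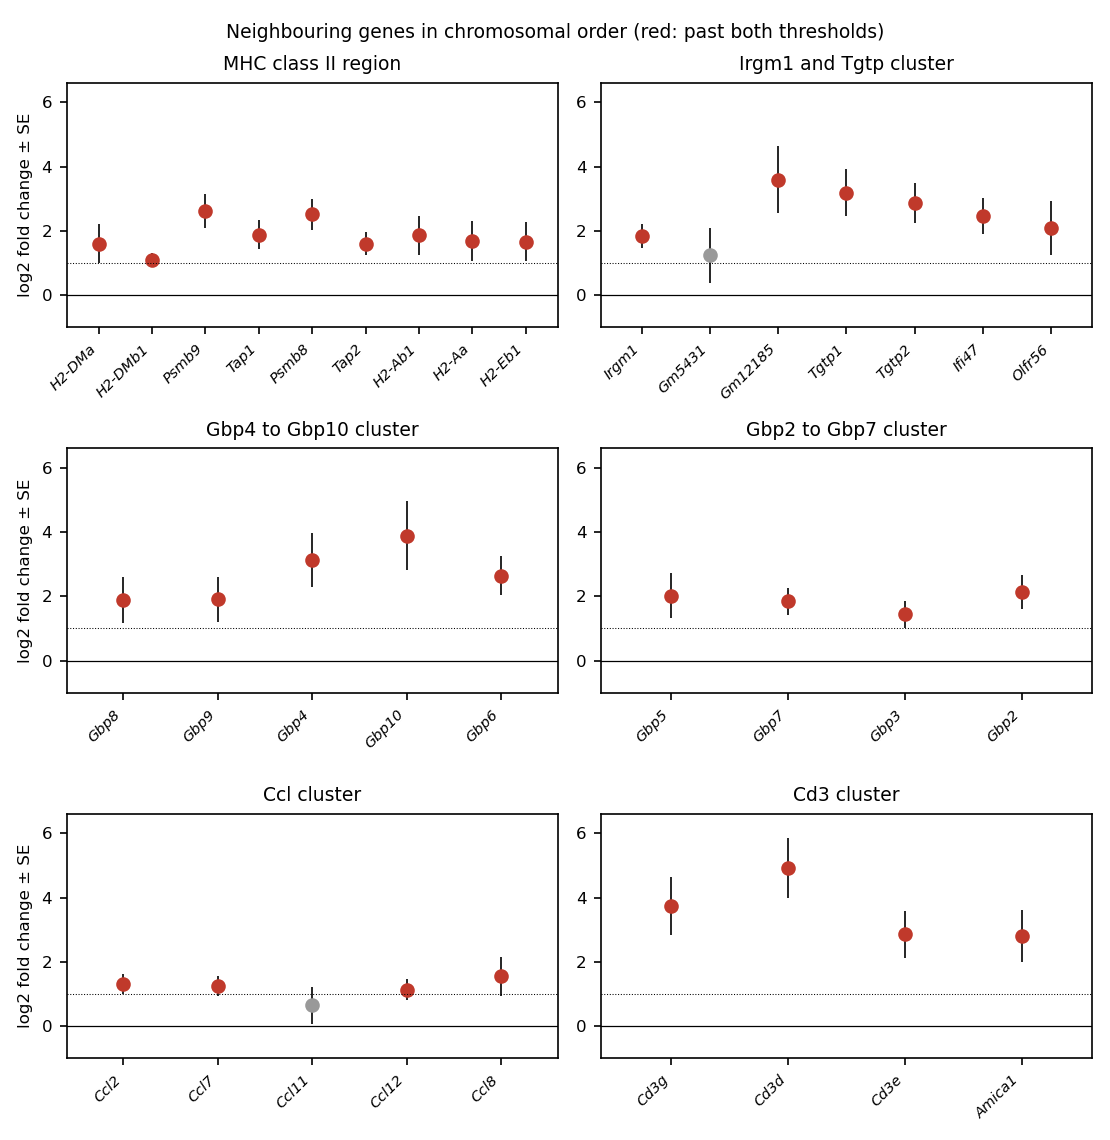
Log2 fold change (anti-PD-1 over isotype) with its standard error for each tested gene of 6 runs of neighbouring upregulated genes, in chromosomal order, with red for genes past both thresholds, grey for the others and a dotted line at a fold change of 2. In the MHC class II region, both Gbp groups and the Cd3 group every tested gene is red, and Gm5431 and Ccl11 are the genes of the other 2 runs that did not pass.

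Part of the T cell genes were upregulated, from a very low base. Of 20 listed, 12 were tested and 8 upregulated (against 2.24% of all genes tested), and the 8 not tested were too low. A gene at this level can enter the test through the group in which it is higher, so these counts are descriptive. Cd3d, a signaling subunit of the receptor on T cells, was counted 0, 0 and 2 times with isotype and 10, 22 and 38 times with anti-PD-1. Its summed counts correspond to a ratio of 36.6 with a 95% exact interval of 9.76 to 308 that covers counting error only. Cd8a, a coreceptor of cytotoxic T cells, measured 0.168, 0.350 and 0.382 CPM and then 0.635, 4.23 and 2.69 CPM (3.09 ± 0.74, edgeR FDR = 0.22). Cd3e, Cd3g, Cd6, Il2rb, Cd8b1 and Foxp3 were the other members of the 8. Foxp3 was counted 1, 0 and 3 times with isotype and 3, 15 and 18 times with anti-PD-1 (3.08 ± 0.86). All 8 kept their call with any obese tumor left out. The more abundant members did not pass, and their groups overlapped, with log2 fold changes of 0.23 ± 0.24 for the kinase Lck, 0.26 ± 0.37 for the adaptor Lat and 0.75 ± 0.33 for the cytokine receptor chain Il2rg. Cd4 did not pass either (0.79 ± 0.50). Replicate 1 exceeded every isotype tumor for 7 of the 12 genes tested, and replicates 2 and 3 both did so for 11, compared with 2854 and 1789 of all 13095 genes.

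Of 19 cytotoxic and NK cell genes listed, 8 were tested and 5 upregulated (against 2.24% of all genes tested), and the other 11 were too low to test. As for T cells, these counts are descriptive. Gzmb, a granule protease, measured 0.126, 0.140 and 0.143 CPM with isotype and 0.423, 2.75 and 1.73 CPM with anti-PD-1 (3.56 ± 0.78, edgeR FDR = 0.202). Prf1, the pore-forming protein, measured 0.168, 0.0699 and 0.191 CPM and then 0.705, 5.90 and 1.96 CPM (4.22 ± 0.99, edgeR FDR = 0.206). For both, the groups did not overlap, and replicate 1 was well below the other treated tumors, with 6 counts of Gzmb against 56 and 38 and against 3, 2 and 3 in the isotype tumors. Nkg7, Gzmc and Ctsw also passed, the last 2 with overlapping groups. Eomes (0.54 ± 0.55) and the most abundant members, the protease inhibitor Serpinb9 (0.32 ± 0.26) and the chemokine Ccl5 (-0.03 ± 0.37), did not pass, and their groups overlapped. Ccl5 measured 8.24, 8.88 and 4.34 CPM with isotype and 3.74, 9.89 and 7.25 CPM with anti-PD-1. Of 16 checkpoint and costimulatory genes tested, 3 passed (against the same 2.24%), and 1 of them, Cd86, did so with any obese tumor left out. The 3 were Lag3 (1.84 ± 0.58), the costimulatory ligand Cd86 (1.83 ± 0.61) and Pdcd1 (2.48 ± 0.94), the gene of PD-1. Pdcd1 followed a different order, with 0, 0.280 and 0.573 CPM in the isotype tumors and 1.55, 2.71 and 0.502 CPM in the treated ones, so that replicate 3 and not replicate 1 was the lowest. At this level Pdcd1 can have entered the test through the treated group.

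Chemokines and their receptors were in part upregulated. Of 21 chemokine and receptor genes tested, 9 were upregulated, and 10 had all treated tumors above all isotype tumors, compared with 2.24% and 5.45% of all genes. Cxcl9, an interferon-gamma-induced ligand of Cxcr3, measured 5.64, 4.55 and 7.07 CPM with isotype and 6.56, 52.4 and 30.0 CPM with anti-PD-1 (2.36 ± 0.69, edgeR FDR = 0.33). Thus replicate 1 lay within the isotype range for Cxcl9 while the other treated tumors were well above it. The monocyte attractants Ccl2, Ccl7 and Ccl12 rose by 1.304 ± 0.32, 1.25 ± 0.32 and 1.13 ± 0.32 with separated groups. Ccl2 measured 3.20, 1.54 and 2.86 CPM and then 4.86, 9.001 and 5.11 CPM.

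Macrophage and monocyte genes were all higher but seldom past the thresholds. The fold change was positive for all 20 (against 47.6% of all genes), with a median of 0.87 (against -0.01), and 3 passed (against 2.24%). These were Fcgr4 (1.54 ± 0.41), an activating Fc receptor, Cd300e (2.29 ± 1.05) and Csf1r (1.10 ± 0.47), the receptor for the macrophage growth factor. Of the 3, only Fcgr4 kept its call with any obese tumor left out. Cd300e, with 3, 1 and 9 counts with isotype, can have entered the test through the treated group. Csf1r measured 27.2, 10.6 and 26.4 CPM with isotype and 18.05, 54.1 and 65.8 CPM with anti-PD-1. In this case the isotype replicate 2 and the treated replicate 1 were the lowest tumors of all. Of the 9 dendritic cell genes tested Clec10a, Itgax and Cd209d passed, and only Clec10a kept its call with any obese tumor left out. Cd209d, with 2, 0 and 7 counts with isotype, can likewise have entered the test through the treated group. Of 16 complement genes C4b alone passed (1.301 ± 0.30, edgeR FDR = 0.206), with the same 2.24% over all genes beside each count. C4b, a component of the classical pathway, measured 47.4, 27.3 and 47.9 CPM with isotype and 62.8, 128 and 112 CPM with anti-PD-1. Of the 15 genes of inflammatory cell death, Il18bp, Casp1 and Tnfsf10 passed, again against 2.24% of all genes, and none of the 3 kept its call in all 6 omissions of an obese tumor.

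**Figure D4:**
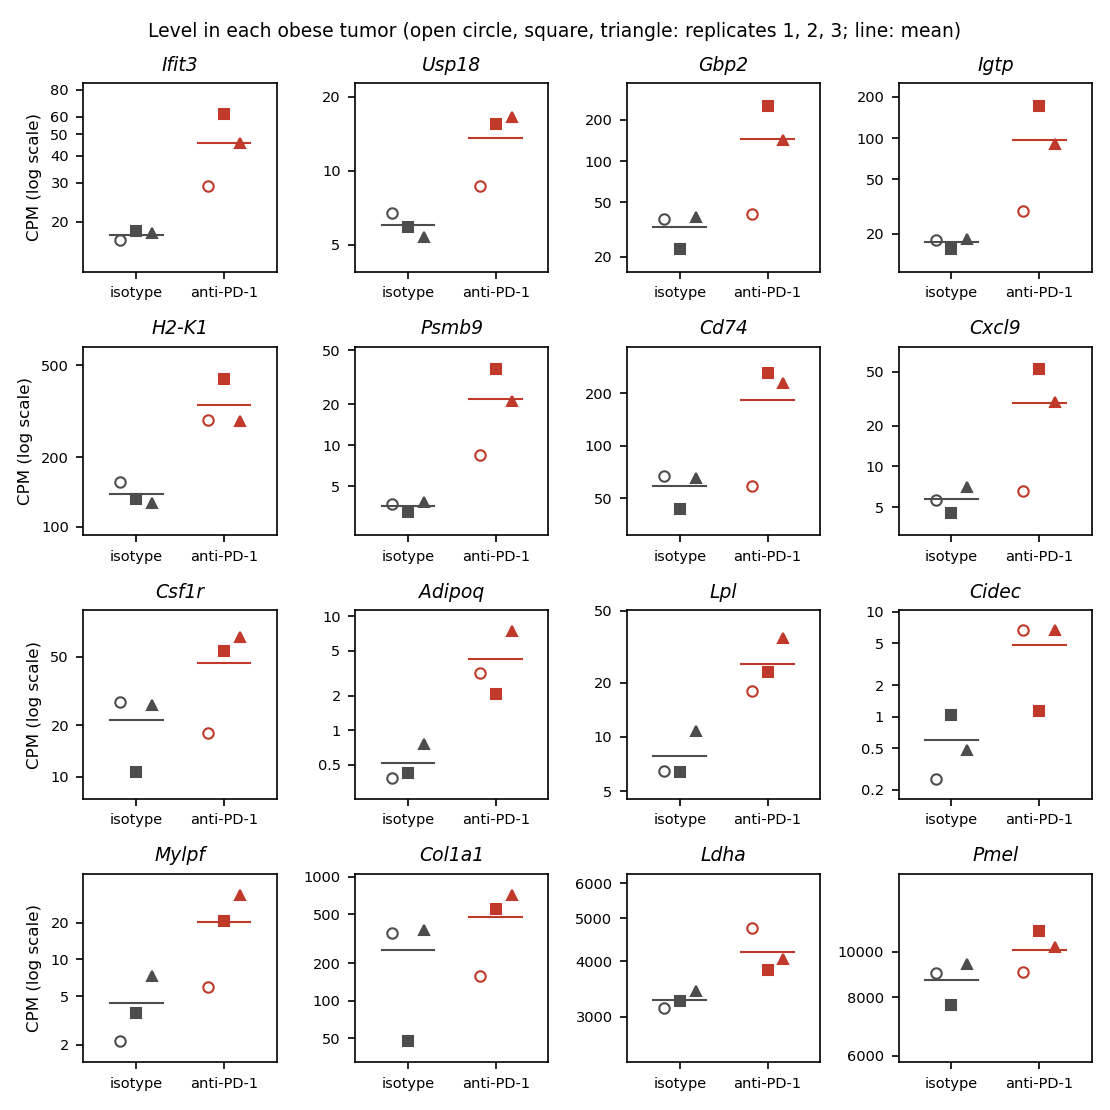
CPM of 16 genes in each obese tumor (log axes that differ between panels), with isotype in grey, anti-PD-1 in red, a different symbol for each replicate and a line at the group mean. Treated replicate 1 (open red circle) lies at or near the isotype tumors for Gbp2, Cd74, Cxcl9 and Csf1r, stands apart from them for H2-K1, Adipoq, Lpl and Cidec, and is the highest tumor for Ldha.

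Adipocyte genes differed in pattern. Of 16 tested, 11 were upregulated (68.8%, against 2.24% of all genes), all 16 were higher, and the median was 2.00. The 5 that did not pass were Lipe, Pnpla2, Slc2a4, Scd1 and Acsl1, and the smallest fold change of the list was 0.09. The summed level of the list was 428, 387 and 495 CPM with isotype and 578, 530 and 741 CPM with anti-PD-1. The median over genes was thus larger than the change in the summed level. Groups were separated for 12 (5.45% of all genes in this direction). Cidea and Adig were listed but not tested. Retn had 0, 2 and 1 counts with isotype and Plin1 had 2, 6 and 6. Such members can have entered the test through the treated group, so these counts are descriptive. Adipoq, the gene of the fat hormone adiponectin, measured 0.379, 0.420 and 0.764 CPM with isotype and 3.17, 2.07 and 7.48 CPM with anti-PD-1 (3.01 ± 0.61, edgeR FDR = 0.192). Cidec, a lipid droplet protein, measured 0.252, 1.05 and 0.477 CPM and then 6.77, 1.13 and 6.66 CPM (3.09 ± 0.70, edgeR FDR = 0.206). In contrast to the interferon and T cell genes, replicate 1 was high for Cidec and replicate 2 only just exceeded the isotype tumors. Lpl, the lipase that releases fatty acids from lipoproteins, measured 6.48, 6.43 and 10.7 CPM and then 17.9, 23.02 and 35.5 CPM (1.69 ± 0.33, edgeR FDR = 0.192). The fatty acid carrier Fabp4 measured 14.2, 19.7 and 15.7 CPM and then 41.6, 26.1 and 44.8 CPM (1.19 ± 0.24, edgeR FDR = 0.192). Every treated tumor was above every isotype tumor for these 4 genes. Over the 16 genes, replicate 1 was the lowest treated tumor for 4 and replicate 2 for 11, compared with 5187 and 3763 of all 13095 genes. Replicate 1 exceeded every isotype tumor for 13, and replicates 2 and 3 both did so for 13, compared with 2854 and 1789 of all 13095 genes. Cfd, Plin4, Plin1, Lep, Retn, Pparg and Car3 completed the 11, and 9 of the 11 kept their call with any obese tumor left out. Outside the lists, Cd36, a fatty acid receptor found on adipocytes and macrophages, and Lrg1, a secreted glycoprotein, were among the 15 upregulated genes of smallest P with separated groups. Cd36 measured 9.25, 10.1 and 16.4 CPM with isotype and 22.9, 25.2 and 25.7 CPM with anti-PD-1 (1.05 ± 0.22), and Lrg1 rose by 2.61 ± 0.53.

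Skeletal muscle genes had similar fold changes with far larger spread. All 22 were higher, the median was 2.29, 6 were upregulated (against 2.24% of all genes), and the groups were separated for 1, a share near the 5.45% of all genes. Their summed level was 40.7, 50.3 and 231 CPM in the isotype tumors and 87.4, 417 and 932 CPM in the treated tumors. Thus the isotype replicate 3 held more muscle transcripts than the treated replicate 1. Mylpf, a fast-fiber myosin light chain, measured 2.15, 3.64 and 7.35 CPM and then 5.99, 20.7 and 33.5 CPM (2.20 ± 0.81, edgeR FDR = 0.521). The other 5 were Myh2, Actn3, Casq1, Des and Pygm, and none of the 6 kept its call under each single omission. As in the interferon lists, replicate 1 was the lowest treated tumor, here for all 22 genes, but replicate 3 and not replicate 2 was the highest. Whether muscle content had a part in the immune differences was not tested.

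Of 18 fibroblast and collagen genes, 17 were higher (against 47.6% of all genes), the median was 0.59, and none was called (against 2.24% of all genes higher). Col1a1 measured 354, 47.4 and 374 CPM with isotype and 158, 553 and 708 CPM with anti-PD-1 (0.87 ± 0.67, edgeR FDR = 0.807). For all 18 genes the isotype replicate 2 was the lowest isotype tumor and the treated replicate 1 the lowest treated tumor, and the summed level in these tumors was 799 and 1175 CPM, against 2275 to 3643 CPM in the other 4. Whether this difference in stroma bears on the immune genes was not tested. With both collagen-poor tumors left out, a choice made after seeing the data, 374 genes were upregulated, 258 of them among the 293, and 20 downregulated. Endothelial genes had a median of 0.27, with 0 of 14 called.

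Among tumor cell programs, no cell cycle gene of 25 was called (median -0.01), nor any of 16 melanocyte genes, which with 2.24% and 0.206% of all genes called in the 2 directions does not set these lists apart. Of 17 hypoxia and glycolysis genes, 16 were higher (against 47.6% of all genes), with a median of 0.29 and no call. They summed to 13670, 12640 and 13500 CPM with isotype and 18150, 14670 and 15730 CPM with anti-PD-1, so that the groups did not overlap. Among the treated tumors, replicate 1 was the highest for all 17. Ldha, which converts pyruvate to lactate, measured 3139, 3251 and 3437 CPM with isotype and 4750, 3815 and 4041 CPM with anti-PD-1 (0.36 ± 0.21, edgeR FDR = 0.706). Genes for sex steroid receptors and enzymes included 11 tested and none called (median -0.01), and the receptors Pgr and Esr2 and the aromatase gene Cyp19a1 were too low to test. Of 3 erythroid genes tested, Slc4a1 passed (2.40 ± 0.77, against 2.24% of all genes called), with 2, 3 and 2 counts in the isotype tumors against 10, 5 and 23 in the treated ones, so that it too can have entered the test through its higher group. The beta globin gene listed as Beta-s was highest in replicate 1, at 142 CPM, among treated levels of 142, 85.9 and 46.0 CPM and isotype levels of 46.7, 46.1 and 25.1 CPM.

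The 27 downregulated genes belonged to none of the 26 lists. Of these, 12 averaged below 1 CPM, 13 averaged 1 to 10 CPM, and Hoxb9 and D4Wsu53e averaged 10.9 and 41.3 CPM. Their median log2 fold change was -1.42, and 21 had separated groups (7% of all genes were separated in this direction). The 27 were selected by fold change and P, which favors separation, so these values are descriptive. Slc17a9, which loads ATP into secretory vesicles, had the smallest P of them and measured 3.20, 3.57 and 2.77 CPM with isotype and 0.917, 1.28 and 1.19 CPM with anti-PD-1 (-1.48 ± 0.32, edgeR FDR = 0.202). Fgf21, a hormone induced by nutrient stress, had the largest fold change, with 13.3, 7.69 and 4.30 CPM and then 0.635, 3.15 and 2.01 CPM (-2.10 ± 0.59, edgeR FDR = 0.309). Fgf21 also varied widely among the isotype tumors, yet no treated tumor reached the lowest of them. Hoxb9, a homeobox transcription factor, measured 15.9, 12.9 and 15.1 CPM and then 5.99, 7.48 and 8.03 CPM (-1.03 ± 0.28, edgeR FDR = 0.286). Ifnlr1, the receptor chain for interferon lambda, measured 3.45, 3.99 and 3.25 CPM and then 1.20, 1.38 and 1.96 CPM (-1.22 ± 0.38, edgeR FDR = 0.412). Within the treated tumors Ifnlr1 was lowest in replicate 1. Slc17a9, Fgf21, Ifnlr1, Ntrk3 and Zic4 kept their calls with any obese tumor left out, the only 5 of the 27 to do so. Of the rest, Ptgs2, Gramd2, Col11a2, Sec16b, D4Wsu53e and Has2 had overlapping groups. Col11a2 owed its mean to isotype replicate 1, with 11.4 CPM against 1.82 to 2.77 CPM in the other 5 tumors, and its fold change turned slightly positive without that tumor (0.0403).

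Leaving out single tumors showed how far the counts rested on each. Without the treated replicate 1, 555 genes were upregulated, including 286 of the 293, and 76 genes reached an FDR of 0.05 with edgeR, all of them higher. Without the treated replicate 2 there were 194 upregulated genes, and without replicate 3 there were 187. Leaving out isotype replicates 1, 2 and 3 gave 371, 203 and 360. In total 109 of the 293 upregulated genes passed in each of these 6 fits. These included 15 of the 19 GTPases, 11 of the 17 antiviral genes, 9 of the 11 adipocyte genes and 6 of the 9 MHC class I genes. All 8 T cell genes and 3 of the 5 cytotoxic genes were included too, though such low genes can enter the test through their higher group. Fewer were kept of other lists, with 3 of the 7 MHC class II genes, 2 of the 9 chemokine genes and 2 of the 6 interferon signaling genes. Also kept were 1 of the 5 sensors of nucleic acids, 1 of the 3 checkpoint genes and none of the 6 muscle genes.

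**Figure D5:**
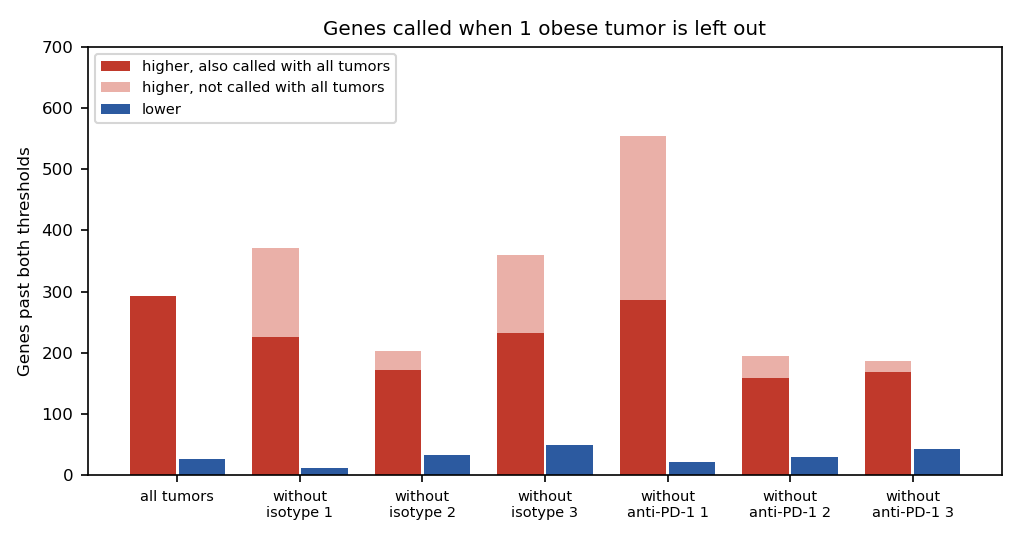
Number of genes past both thresholds with all tumors and with each of the 6 obese tumors left out, with upregulated genes split into those also called with all tumors (dark red) and the others (light red), and downregulated genes in blue. The upregulated count ranges from 187 without treated replicate 3 to 555 without treated replicate 1, and the downregulated count from 11 to 49.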

How the data were processed

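Bulk RNA sequencing of tumors was analysed from the gene counts the authors deposited. Per the labels and methods, RNA was extracted with TRIzol, libraries were made with a stranded mRNA kit, and the submitters' processing notes name FastQC 0.11.5, STAR 2.7.0f, HTSeq 0.9.1 and edgeR 3.28.1 with the mm10 build. The deposited values were whole, unnormalised counts for 23420 genes in 12 tumors of 4 groups of 3, taken as separate animals, so that P values measure the spread between tumors. Here, edgeR 4.0.16 (R 4.3.3) was used with TMM factors, its filter on low counts by group, 4 group means and the quasi-likelihood test, leaving 13095 genes and 8 residual degrees of freedom. A call required more than 2-fold change together with an unadjusted P value under 0.05, the thresholds of the study, and FDR was by Benjamini-Hochberg over all genes tested. SE is that of the log2 fold change. CPM used TMM-scaled totals, and list levels used log2(CPM + 0.5). With 3 tumors per group a permutation test of a single gene cannot go below P = 0.1, so none was used.

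The members and gene lists were chosen with earlier results of these data known. Genes were named by rule. These were the 15 upregulated and 15 downregulated genes of smallest P with separated groups, up to 6 called members per list by P (or, in a list with fewer than 3, up to 4 of highest CPM), the genes Cd3d, Ifng, Gzmb and H2-DMb1, the called genes of largest fold change or highest CPM, and members of runs of neighbours. Other genes named were added after their values were seen, and some items are not reported here. Positions and names came from RefSeq GRCm38.p6, which matched 13033 of the tested genes. DESeq2 1.42.0, other scalings, filters and dispersion settings, a replicate block and the omission of single tumors were tried, and the code was tested on simulated data. Replicate numbers did not pair the tumors.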

Additional observations from a re-analysis of the deposited data

How the results depend on the processing

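Among the genes named by rule, those past both thresholds kept their direction in the alternatives run, except Col11a2. The log2 fold change of Col11a2, -1.20, ranged from -1.586 without isotype replicate 2 to 0.0403 without isotype replicate 1. The count of upregulated genes (293) was 442 when every gene of at least 1 count was kept and 156 when each tumor had to hold at least 10. The count of downregulated genes (27) was 66 and 4 with these filters and 13 with a mean of at least 1 CPM. Fewer low genes were tested under the stricter filters. The count below an FDR of 0.05 (0 with edgeR, with 991 genes at an unadjusted P below 0.05) was 105 with DESeq2, 6 with the 1-count filter, 7 without the 2 collagen-poor tumors and 0 with RLE size factors. The cause of these differences was not tested. Over the omission of each of the 12 tumors, upregulated genes ranged from 187 to 555, downregulated genes from 11 to 52 and genes below an FDR of 0.05 from 0 to 76. Same-numbered tumors of the 2 obese groups did not deviate together (correlations of -0.15, -0.26 and 0.26). With a replicate block, 311 genes were upregulated, 252 of them among the 293, 37 were downregulated and 2 had an FDR below 0.05. In a fit of the 6 obese tumors alone, 301 genes were upregulated, 241 of them among the 293, and 36 downregulated, 15 of them among the 27. Depth limits what can be said of low genes, those of T cells, B cells, neutrophils and keratinocytes among them, since 3 counts correspond to 0.126 to 0.212 CPM in the obese tumors.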

Other observations

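Below the fold threshold, the lower genes of smallest P included several of amino acid synthesis and of protein folding in the endoplasmic reticulum. A list of 28 genes of the amino acid and stress response was drawn up after these values were seen, so it is given as a description. Of the 27 tested, 26 were lower with anti-PD-1, 13 had an unadjusted P below 0.05 in edgeR, 13 had all treated tumors below all isotype tumors, and the median log2 fold change was -0.39, while only Fgf21 passed both thresholds. Over all 13095 genes, 428 were lower at such a P, 7% had all treated tumors below all isotype tumors, and the median was -0.01. Atf4, the transcription factor that drives such genes, had a log2 fold change of -0.72 ± 0.21 (edgeR FDR = 0.335). Gpt2, which makes alanine, had -0.76 ± 0.15 (edgeR FDR = 0.192), the smallest P of any lower gene, and Cth, which makes cysteine, had -0.91 ± 0.21 (edgeR FDR = 0.206). The mitochondrial enzymes Mthfd2 and Pck2 had -0.56 ± 0.14 and -0.70 ± 0.19. Slc7a5 was the exception, at 0.04. The summed level of the list was 4473, 3797 and 3677 CPM in the isotype tumors and 2976, 3285 and 3397 CPM in the treated tumors, which did not overlap. Treated replicate 1, the lowest treated tumor for most upregulated genes, was also the lowest here.

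All 20 genes of a second such list, of endoplasmic reticulum chaperones and secretion, were lower, with a median of -0.27, 10 at an unadjusted P below 0.05 (428 of all 13095 genes) and 11 with all treated tumors below all isotype tumors (7% of all genes). Dnajb9, a cochaperone, had -0.82 ± 0.18 (edgeR FDR = 0.206) and Serp1, a membrane protein stabiliser, had -0.42 ± 0.09 (edgeR FDR = 0.202). The chaperone Hspa5 had -0.31 ± 0.12 (edgeR FDR = 0.559). None of the 20 changed by more than 2-fold, and the summed level ran from 9023 to 9770 CPM with isotype and from 7121 to 8810 CPM with anti-PD-1, without overlap.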
